A study of Mus musculus with 24 samples.

Results

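The genes described here are 37 mitosis and cytokinesis genes in mouse liver organoids, taken as a list of gene symbols that was drawn up with earlier results of these data known. All 37 were found in each of the 3 deposited expression tables, among 31053 genes in the table of primary hepatocytes and hepatocyte organoids, 25876 genes in the table of cholangiocyte organoids and 20729 genes in the Smart-Seq table. They fall into 9 roles. Mki67 and Top2a are a proliferation marker and the topoisomerase that untangles sister chromatids. Cdk1 with the cyclins Ccna2, Ccnb1 and Ccnb2 forms the kinase that drives entry into mitosis. Bub1, Bub1b, Mad2l1 and Ttk act in the spindle checkpoint. Aurka, Plk1, Tpx2 and Nusap1 act in spindle assembly. Aurkb, Birc5, Incenp and Cdca8 form the chromosomal passenger complex. Kif11, Kif2c and Kif4 are kinesin motors. Cenpa, Cenpe, Cenpf, Ndc80, Nuf2, Spc24 and Spc25 belong to the centromere and kinetochore. Prc1, Kif20a, Kif23, Racgap1, Ect2 and Anln act at the spindle midzone and in cytokinesis. Cdc20, Ube2c and Pttg1 act with the anaphase-promoting complex, Pttg1 as its substrate securin.

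The study isolated hepatocytes and cholangiocytes from livers of adult wild-type BALB/c mice and grew each as organoids in Matrigel. The bulk RNA-seq holds 21 libraries, 3 per group. Libraries labelled as primary hepatocytes are called Pri-Hep. Organoids grown from hepatocytes, Hep-Orgs, were sampled at the passages P1, P5 and P10. Organoids grown from cholangiocytes, Cho-Orgs, were sampled at the passages P0, P5 and P10. The Smart-Seq data hold 3 libraries, 1 for each of the shapes of Hep-Orgs picked at P0, called grape-like, intermediate and round-like. No group carries a transgene or a deleted gene. The hepatocytes were separated by density centrifugation and depletion of EpCAM-positive cells, and the cholangiocytes by selection for EpCAM. The bulk Hep-Orgs grew in a hepatocyte medium (Hep-Med) with the Notch inhibitor DAPT and the glucocorticoid dexamethasone, whereas the picked P0 organoids grew in Hep-Med alone. Hep-Med holds the Wnt agonists R-spondin 1 and CHIR99021 and the growth factors EGF, FGF7, FGF10 and HGF. The Cho-Orgs medium also held R-spondin 1, with Wnt3a, Noggin, forskolin, EGF, HGF and FGF10, and neither DAPT nor dexamethasone. By the study's list both media held a ROCK inhibitor as well, and further components are left out here. Passage and days in culture went together, so they cannot be told apart. The sources differ on whether replicates were separate cultures or separate mice, and p-values measure only the spread between these libraries.

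Many genes of mitosis are transcribed late in the cell cycle, in the G2 phase and in mitosis itself, and are silent in resting cells. Their promoters are known for CCAAT boxes, bound by the factor NF-Y, and for a cell cycle genes homology region near the start, with the letters TTTGAA, through which the DREAM complex represses them in resting cells and the B-MYB and FOXM1 complexes activate them in G2. Most hepatocytes and cholangiocytes of an adult liver are resting, and they enter the cycle after injury or in culture with growth factors.

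RefSeq promoters on build GRCm38.p6, running from 250 bases before to 50 bases after each start, were at hand for 31 of the 37 genes, 2 of them with 2 starts. TTTGAA, read on either strand (TTCAAA on the other), was present in the promoters of 23 of 31 (74.2%), against 5466 of 27025 genes (20.2%). CCAAT, likewise read on either strand (ATTGG on the other), was also present in 23 of 31 (74.2%), against 41.1% of all genes, and both motifs in 20 (64.5%), against 7.97%. Within 50 bases on either side of the start, TTTGAA stood in 21 of 31 (67.7%), against 5.72% of all genes. In 75 other mitotic genes, of which 65 had a promoter, TTTGAA was present in 29 (44.6%) and CCAAT in 42 (64.6%). In 25 genes of DNA replication, of which 21 had a promoter, TTTGAA was present in 3 (14.3%) and CCAAT in 15 (71.4%). A match of one motif can share at most 1 base with a match of the other. The 110 bases before the start are given for 5 members, each 5′ to 3′ on the strand of the gene, to show 4 promoters that hold both motifs in this window and 1, Mad2l1, that holds neither. Capitals mark TTTGAA and CCAAT on either strand.
Top2a (chr11:99024190-99024299, minus strand): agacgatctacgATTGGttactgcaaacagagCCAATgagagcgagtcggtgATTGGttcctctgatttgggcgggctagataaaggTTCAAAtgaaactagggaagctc
Cdk1 (chr10:69352913-69353022, minus strand): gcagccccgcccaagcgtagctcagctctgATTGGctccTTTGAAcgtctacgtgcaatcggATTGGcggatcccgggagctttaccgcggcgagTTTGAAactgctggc
Cdc20 (chr4:118437344-118437453, minus strand): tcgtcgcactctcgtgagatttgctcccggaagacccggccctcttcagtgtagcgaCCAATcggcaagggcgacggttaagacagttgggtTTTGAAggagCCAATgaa
Kif11 (chr19:37376272-37376381, plus strand): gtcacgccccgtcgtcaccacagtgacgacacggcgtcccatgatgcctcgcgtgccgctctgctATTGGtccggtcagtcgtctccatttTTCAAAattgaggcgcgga
Mad2l1 (chr6:66535111-66535220, plus strand): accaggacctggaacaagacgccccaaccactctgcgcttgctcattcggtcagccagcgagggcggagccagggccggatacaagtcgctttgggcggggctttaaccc
Counted back from the start, the first base of TTTGAA stood at -23 in Top2a, -15 and -71 in Cdk1, -18 in Cdc20 and -19 in Kif11. The RefSeq start of Mad2l1 lies upstream of the gene start in the deposited tables, which its promoter window does not reach. A match in these letters is a description and not a shown binding site.

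Values were FPKM, fragments scaled to gene length and library size, as deposited. The hepatocyte table rested on 14068906 to 27160365 fragments per library, recovered exactly from the values, and the Cho-Orgs and Smart-Seq tables on an estimated 37505000 to 39925000 and 39935000 to 40500000. The libraries labelled Pri-Hep did not carry the marker profile of hepatocytes. Summed FPKM of 10 hepatocyte markers was 619 to 651 in them against 4439 to 4558 for 10 cholangiocyte markers, with Alb at 112 ± 7.99 and Krt19 at 237 ± 6.66 FPKM (mean ± SD, n = 3). The Hep-Orgs libraries of the same table had like values, and the labels are used here as given. In Cho-Orgs the P0 libraries held 11171 to 12788 FPKM of hepatocyte markers beside 5841 to 7320 of cholangiocyte markers. At P0, replicate 1 had the highest level of all 37 members among its 3 libraries, with a summed level 138% of the mean of the other P0 libraries. The main counts and medians that use P0 are therefore also given without it, while the values of single members use all 3 libraries.

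In Cho-Orgs the mitosis and cytokinesis genes were high at P0, lower at P5 and lowest at P10. The summed FPKM of the 37 genes was 974, 671 and 743 in the P0 libraries, 439, 440 and 405 at P5, and 69.3, 70.1 and 72.4 at P10. All 37 were called lower at P10 than at P0, with a median log2 fold change of -2.99 against 0.07 over all genes tested. Their mean FPKM at P10 was 2.01% (Nuf2) to 31.3% (Kif23) of the P0 mean, with a median of 4.97%, so that the median member was 20.1-fold lower. For 26 members less than 10% of the P0 level was left, and for 17 the P10 mean was under an FPKM of 1. Without P0 replicate 1 the shares were 2.35% to 35.8%, with a median of 5.51% and 24 members under 10%, and all 37 were still called lower with a median log2 fold change of -2.86. The test was limma on log2(FPKM + 1) with Benjamini-Hochberg adjustment over 11593 genes, called at an adjusted p under 0.05. In the same comparison 31.3% of all genes were called lower and 41% higher (3634 and 4750 genes, or 4163 and 4102 with median-ratio scaling). All 37 passed the filter of an FPKM of 1 in at least 3 libraries, and those under 1 at P10 did so through P0 and P5. In bulk organoids, fewer dividing cells and less RNA per dividing cell cannot be told apart.

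**Figure D1:**
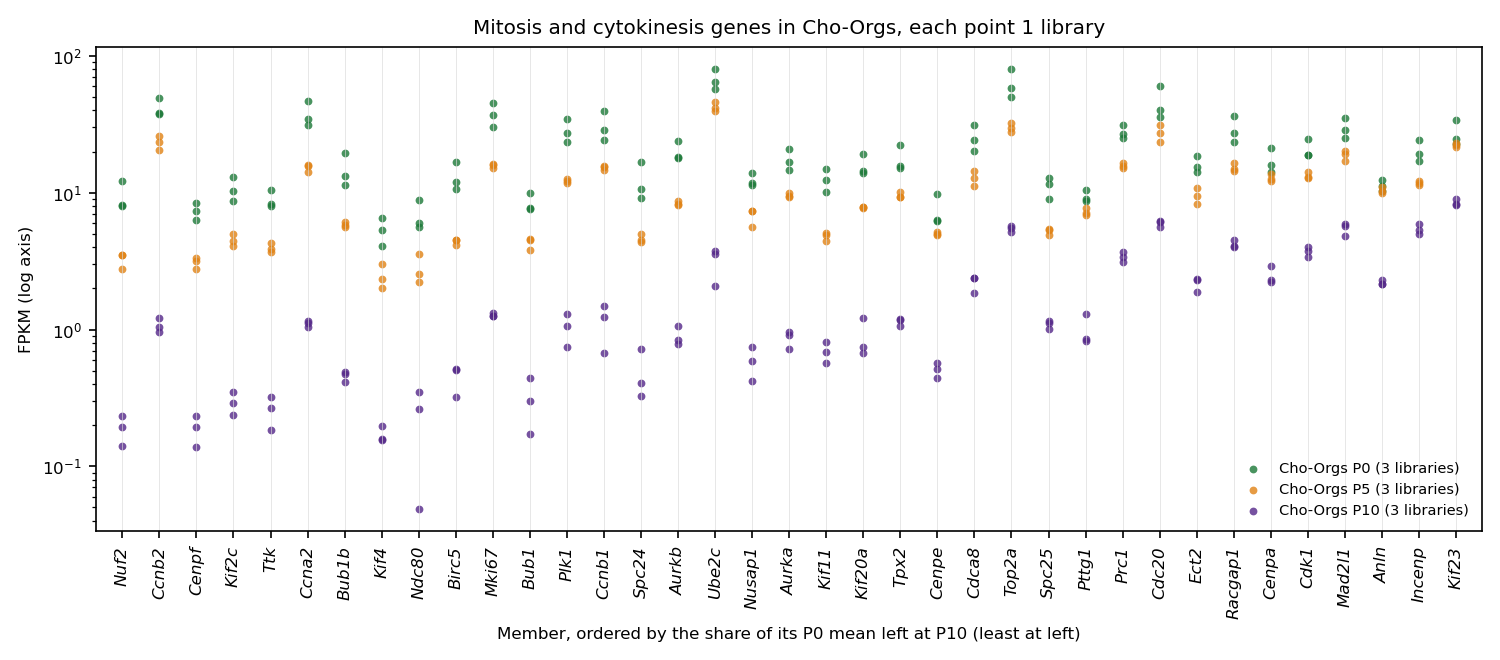
FPKM (log axis) of each of the 37 mitosis and cytokinesis genes in the 9 Cho-Orgs libraries, each point 1 library, coloured by passage and ordered by the share of the P0 mean left at P10. The P10 libraries lie below the P5 and P0 libraries for all 37 genes. The share of the P0 mean left at P10 runs from 2.01% at the left (Nuf2) to 31.3% at the right (Kif23).

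Among the proliferation and condensation genes, Mki67 (ENSMUSG00000031004, chr7:135689784-135716361, minus strand, mm10), which codes for the Ki-67 protein used as a marker of cycling cells, had 44.9, 30.0 and 36.97 FPKM in the P0 libraries, 15.2, 16.3 and 15.8 at P5 and 1.31, 1.26 and 1.26 at P10. The groups did not overlap, and the P10 mean was 3.42% ± 0.398 (SE of the ratio) of that at P0 (log2 fold change -4.05, SE 0.12, limma adjusted p = 3.28e-09). Top2a (ENSMUSG00000020914, chr11:98992943-99024189, minus strand), whose promoter is printed above, had 79.9, 49.9 and 58.2 FPKM at P0, 29.5, 32.1 and 27.9 at P5 and 5.15, 5.51 and 5.74 at P10. It kept 8.72% ± 1.28 of its P0 mean (log2 fold change -3.27, SE 0.14), a larger share than Mki67.

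Cdk1 and its cyclins fell by different amounts. Ccnb2 (ENSMUSG00000032218, chr9:70407692-70421547, minus strand), cyclin B2, had 48.8, 38.4 and 37.7 FPKM at P0, 23.4, 25.9 and 20.5 at P5 and 0.953, 1.21 and 1.04 at P10. Its log2 fold change from P0 to P10, -4.36 (SE 0.11, limma adjusted p = 1.70e-09), was the largest decrease of the 37 members on that scale. The 3 cyclins kept 2.56% to 3.68% of their P0 means, with Ccna2, cyclin A2, at 2.95% and Ccnb1, cyclin B1, at 3.68%. Cdk1, the kinase they bind, had 24.8, 19.0 and 18.9 FPKM at P0, 13.1, 14.1 and 12.7 at P5 and 3.76, 3.39 and 3.98 at P10. It kept 17.8% ± 1.85 (log2 fold change -2.21, SE 0.10), and the 95% intervals of its fold change (-2.43 to -1.98) and of that of Ccnb2 (-4.61 to -4.11) did not overlap.

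Of the spindle checkpoint genes, which hold cells in metaphase until all chromosomes are attached, Mad2l1 (ENSMUSG00000029910, chr6:66535390-66547220, plus strand) had 35.0, 24.9 and 28.7 FPKM at P0, 19.2, 20.3 and 17.1 at P5 and 5.68, 5.92 and 4.83 at P10. This inhibitor of the anaphase-promoting complex kept 18.5% ± 2.15 of its P0 mean (log2 fold change -2.23, SE 0.12), and it is the member printed above with neither motif. The checkpoint kinases Bub1 and Ttk and the pseudokinase Bub1b kept 2.89% to 3.60%. Their levels at P10 were low in absolute terms, with means of 0.304, 0.258 and 0.456 FPKM.

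The spindle assembly genes kept 3.63% to 6.43% of their P0 means. Plk1 (ENSMUSG00000030867, chr7:122159439-122169873, plus strand), the polo kinase of centrosome maturation and mitotic exit, had 34.7, 23.5 and 27.2 FPKM at P0, 11.8, 12.6 and 12.1 at P5 and 0.746, 1.06 and 1.29 at P10 (log2 fold change from P0 to P10 -3.85, SE 0.13). Aurka, the centrosomal Aurora kinase, kept 4.97% of its P0 mean, its activator Tpx2 6.43% and the microtubule binder Nusap1 4.70%.

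In the chromosomal passenger complex, which corrects wrong attachments and later moves to the midzone, Cdca8 (ENSMUSG00000028873, chr4:124918465-124939311, minus strand), the borealin subunit, had 31.2, 20.3 and 24.3 FPKM at P0, 14.4, 12.8 and 11.2 at P5 and 1.84, 2.36 and 2.36 at P10. The kinase Aurkb, the survivin gene Birc5 and Cdca8 kept 3.41% to 8.66% of their P0 means. The scaffold Incenp had 24.1, 17.1 and 19.3 FPKM at P0, 11.4, 12.2 and 11.8 at P5 and 5.004, 5.38 and 5.91 at P10 and kept 26.9% ± 3.08 (log2 fold change -1.71, SE 0.11), so the 4 subunits did not fall in proportion.

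Kif11 (ENSMUSG00000012443, chr19:37376403-37421859, plus strand), the bipolar kinesin that pushes spindle poles apart, had 15.0, 10.1 and 12.4 FPKM at P0, 5.10, 4.92 and 4.46 at P5 and 0.682, 0.810 and 0.568 at P10 (log2 fold change from P0 to P10 -2.99, SE 0.12). The other motors, the microtubule depolymerase Kif2c and the chromokinesin Kif4, had P10 means of 0.292 and 0.171 FPKM and kept 2.74% and 3.22%.

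Cenpa (ENSMUSG00000029177, chr5:30666777-30674830, plus strand), the histone H3 variant that marks centromeres, had 21.2, 14.2 and 15.8 FPKM at P0, 12.6, 13.6 and 12.2 at P5 and 2.23, 2.30 and 2.93 at P10. Most of its decrease came after P5, at which 75.0% ± 9.71 of the P0 mean was left, and 14.6% was left at P10 (log2 fold change -2.36, SE 0.13). The other centromere and kinetochore genes kept less, from 2.01% in Nuf2 to 9.88% in Spc25. Ndc80, Nuf2, Spc24 and Spc25 form 1 complex that binds microtubules. Of these Ndc80 kept 3.22% and Spc24 3.98%. The thinnest value of all rests here, at 0.0485 FPKM of Ndc80 in replicate 2 of P10, about 4 fragments.

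The midzone and cytokinesis genes had the highest median share left, 13.97% of the P0 mean against 3.22% to 10.5% in the other 8 roles. Members of other roles lay in the same range, among them Incenp (26.9%), Mad2l1 (18.5%), Cdk1 (17.8%) and Cenpa (14.6%). Kif23 (ENSMUSG00000032254, chr9:61915905-61946774, minus strand), the kinesin subunit of centralspindlin, had 33.9, 22.7 and 24.8 FPKM at P0, 23.2, 22.5 and 21.7 at P5 and 8.97, 8.18 and 8.30 at P10. Its P0 and P5 libraries overlapped and its P10 libraries lay below both, so that 31.3% ± 4.08 was left (log2 fold change -1.55, SE 0.12, limma adjusted p = 1.83e-06). Anln, an actin binder of the cleavage furrow, had 12.4, 11.1 and 10.3 FPKM at P0, 10.3, 11.1 and 10.03 at P5 and 2.16, 2.16 and 2.31 at P10. It showed the same shape as Kif23, with overlapping P0 and P5 libraries and 19.6% left at P10. Racgap1, the partner of Kif23 in centralspindlin, kept 14.4%, the cytokinesis gene Ect2 13.5% and the microtubule bundler Prc1 12.3%. Kif20a, the kinesin that carries the passenger complex to the midzone, was the exception with 5.56%.

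Ube2c (ENSMUSG00000001403, chr2:164769898-164778822, plus strand), the ubiquitin-conjugating enzyme of the anaphase-promoting complex, had the highest mean level of the 37 genes at P0. It had 80.2, 57.5 and 64.8 FPKM at P0, 45.7, 39.6 and 41.3 at P5 and 3.55, 2.06 and 3.76 at P10, with a log2 fold change of -4.07 between P0 and P10 (SE 0.17). Cdc20, an activator of the complex whose promoter is printed above, had 60.1, 35.7 and 40.5 FPKM at P0, 31.4, 27.3 and 23.5 at P5 and 5.64, 6.07 and 6.16 at P10, and kept 13.1%. Pttg1 kept 10.5%.

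**Figure D2:**
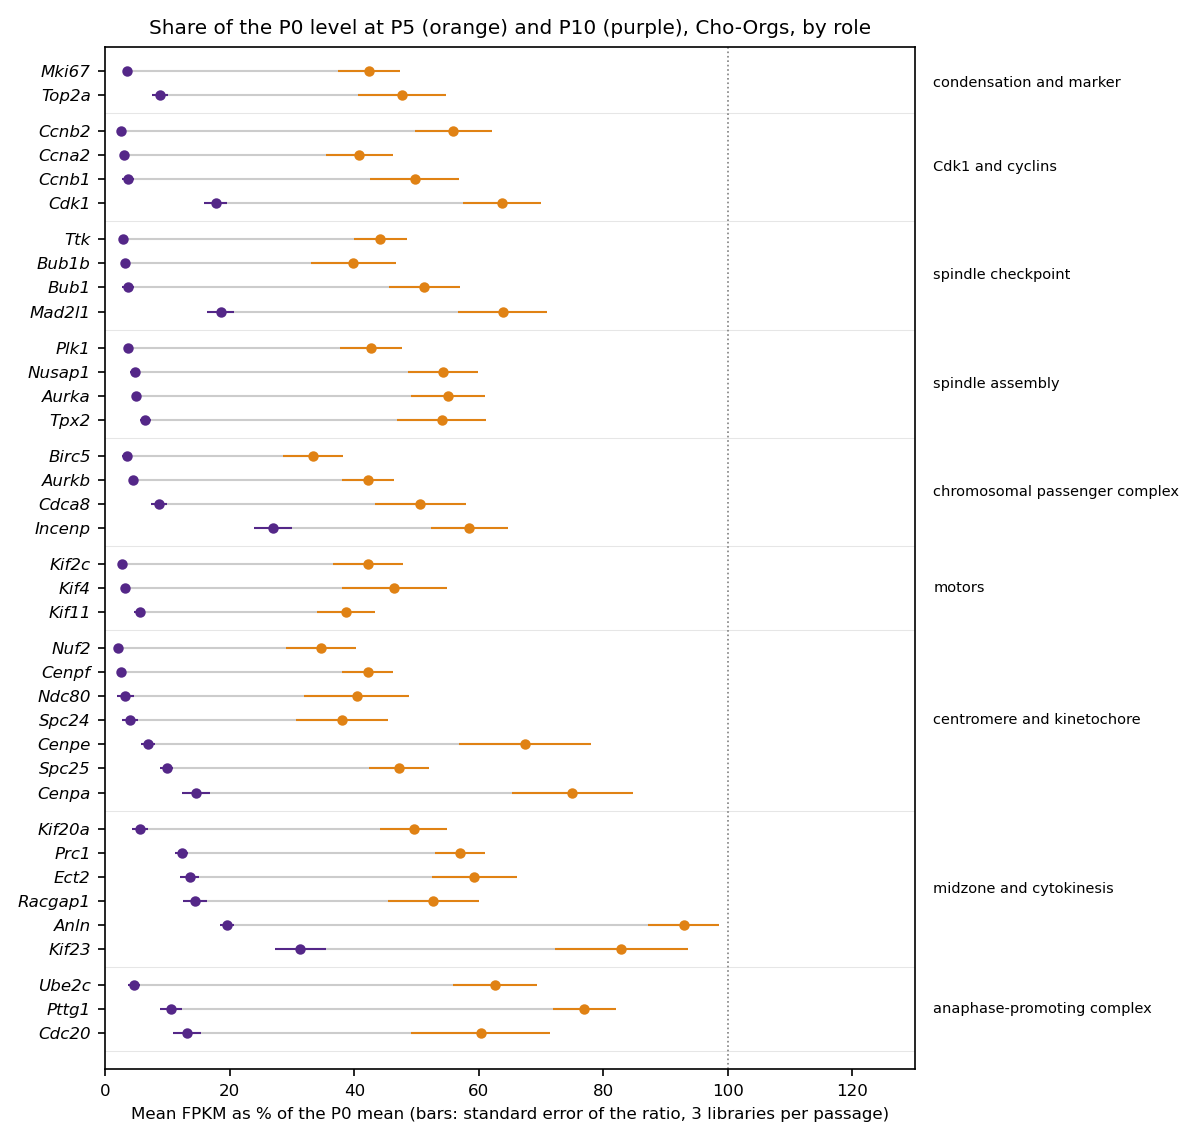
Mean FPKM at P5 (orange) and P10 (purple) as a percentage of the P0 mean for each of the 37 genes in Cho-Orgs, grouped by role, with bars for the standard error of the ratio (3 libraries per passage). The P5 values lie between 33.4% and 92.9% and the P10 values between 2.01% and 31.3%, with Kif23, Incenp, Anln, Mad2l1 and Cdk1 the highest at P10.

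Taken as a ratio, the decrease was uneven between the passages. From P0 to P5, 35 of 37 members were called lower and 0 higher, with a median log2 fold change of -0.86 against 0.06 over all genes tested, where 22.6% of genes were called lower and 34% higher (2621 and 3938 genes, or 3449 and 3087 with median-ratio scaling, which left 36 members lower). Changes ranged from -1.37 in Birc5 to -0.10 in Anln. The 2 members not called were Kif23 (-0.24, 95% interval -0.51 to 0.03, limma adjusted p = 0.115) and Anln (-0.10, -0.25 to 0.06, limma adjusted p = 0.267). The call of Cenpa (-0.37, SE 0.13, limma adjusted p = 0.0355) was close to the threshold and was lost without P0 replicate 1 (-0.21). Without that library 34 members were still called lower and the median was -0.72.

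From P5 to P10 all 37 members were called lower, with a median log2 fold change of -1.99 against 0.01 over all genes tested and a range of -3.55 in Ccnb2 to -0.99 in Incenp. In that comparison 30.5% of genes were called lower and 31% higher. The P5 mean was 33.4% to 92.9% of the P0 mean (median 50.6%), and the P10 mean 4.59% to 46.0% of the P5 mean (median 10.5%). In each of the 37 genes the share lost was larger in the second step, with and without P0 replicate 1. The later libraries lay wholly below the earlier ones for 35 members at P5 against P0, 37 at P10 against P5 and 37 at P10 against P0, where 24.8%, 36.8% and 32.6% of all genes did so.

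The difference between the steps was tested as a contrast in the same fit, in which both steps share the P5 libraries. It was called for 32 of 37 members, each with the steeper decrease in the second step, where 27.8% of all genes were called in that direction. The median difference in log2 fold change was -1.17 against -0.04 over all genes tested. Ube2c (-2.76, SE 0.29) and Ccnb2 (-2.74, SE 0.19) differed most. Anln (-1.74, SE 0.12) was the clearest case of a gene that held its level to P5 and then fell. Not called were Birc5 (-0.53, limma adjusted p = 0.0909), Incenp (-0.28, 0.240), Ndc80 (-0.57, 0.1495), Nuf2 (-0.56, 0.0803) and Spc24 (-0.74, 0.0773). The call of Kif11 (-0.59, limma adjusted p = 0.0405) was lost in 8 of the alternative settings. For genes near an FPKM of 1 the pseudocount makes the second step look smaller than the raw levels do. Without P0 replicate 1, 37 members were called and the median was -1.30.

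**Figure D3:**
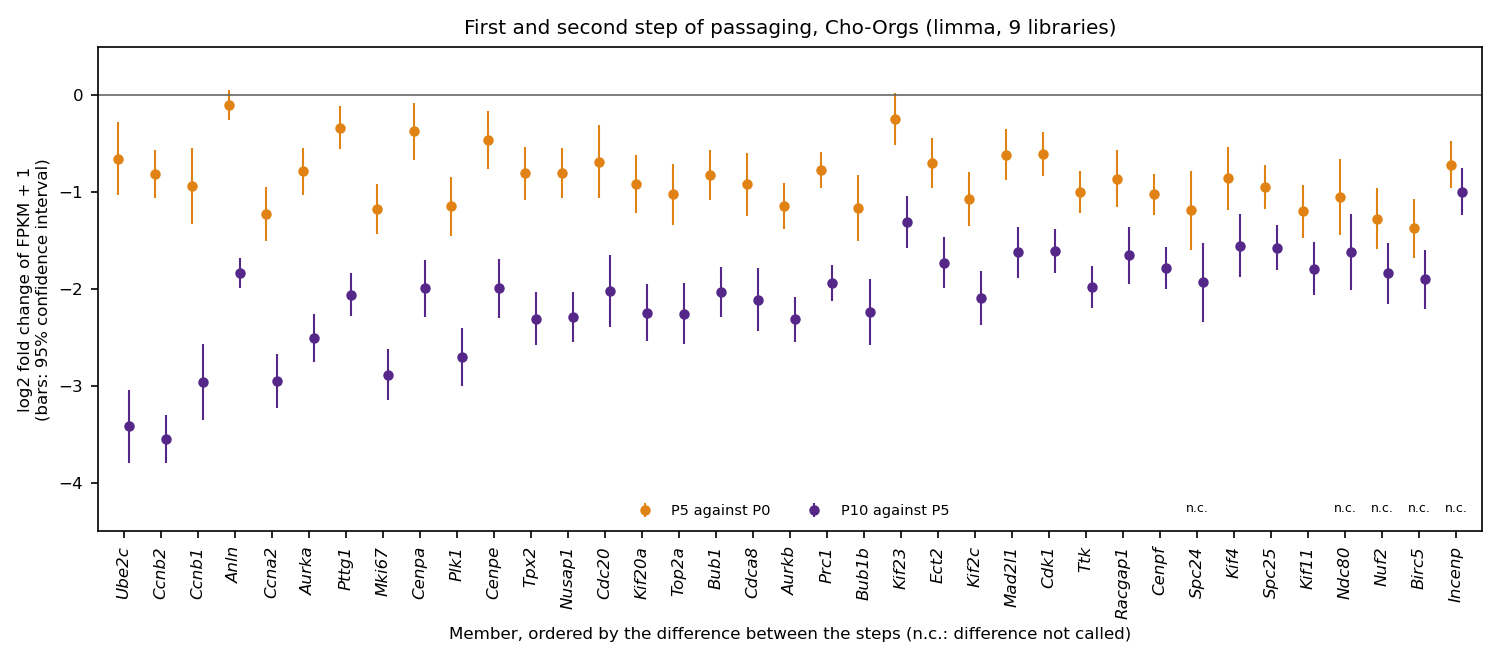
log2 fold changes of FPKM + 1 from P0 to P5 (orange) and from P5 to P10 (purple) for each of the 37 genes in Cho-Orgs, with 95% confidence intervals from limma over 9 libraries, ordered by the difference between the steps. The second step lies below the first for every gene, and the 5 genes marked n.c. (Spc24, Ndc80, Nuf2, Birc5 and Incenp) are those whose difference was not called.

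Genes outside the list that act in the same processes were mostly lower as well, with smaller medians. Of 75 other mitotic genes in 5 lists (mitotic regulators, other kinetochore and checkpoint genes, other motors and spindle genes, condensin, and anaphase and abscission), 72 were tested. From P0 to P10, 65 were called lower and 1 higher, with a median of -1.52. The one called higher was Cdc16, a subunit of the anaphase-promoting complex (0.50, limma adjusted p = 0.000142). The lists ranged from condensin, with 8 of 8 lower and a median of -1.90, and other motors and spindle genes, with 14 of 14 lower and a median of -2.21, to anaphase and abscission, with 5 lower and 1 higher of 9 and a median of -0.31. Hmmr, a spindle protein, fell by 3.58 and Pbk, a mitotic kinase, by 3.53 on the log2 scale, whereas Pkmyt1, an inhibitory kinase of Cdk1, stood at -0.03 (limma adjusted p = 0.738). For the difference between the steps, 29 of the 72 were called with a steeper decrease in the second step and 4 in the other direction. Over all genes tested, 27.8% and 20.9% were called in these directions. The 29 were 10 of 14 other motors and spindle genes, 8 of 15 mitotic regulators and 3 of 8 condensin genes. The rest were 6 of 26 other kinetochore and checkpoint genes and 2 of 9 genes of anaphase and abscission.

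Genes of DNA replication were lower too, and none of them was called as falling more steeply in the second step. All 25 were called lower from P0 to P10, with a median of -2.12, and all 25 from P0 to P5, with a median of -1.11. From P5 to P10, 20 were called lower, with a median of -0.95. For the difference between the steps 0 of 25 were called with a steeper decrease in the second step and 7 in the other direction (median 0.24), where 20.9% of all genes were called in that other direction (26.1% with median-ratio scaling), whereas 32 of the 37 mitosis and cytokinesis genes were called steeper in the second. Rrm2, a subunit of ribonucleotide reductase, had the largest decrease of these genes (-3.35). Among 21 genes of G1 and of cell cycle brakes, 10 were called lower and 9 higher from P0 to P10. Cdkn2b, an inhibitor of the G1 kinases, rose from a mean of 18.2 to 87.4 FPKM, and Rbl1, a retinoblastoma-like repressor, fell by 1.70 on the log2 scale.

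Markers of cell types moved with passage in the same libraries. The summed FPKM of the hepatocyte markers, given above for P0, was 551 to 665 at P5 and 173 to 184 at P10, and that of the cholangiocyte markers was 4133 to 4269 and 3759 to 3792. The 9 stellate and fibroblast markers summed to 60.8 to 75.8 at P0, 7.55 to 8.37 at P5 and 0.174 to 0.239 at P10. Only 1 of these 9 reached an FPKM of 1 at P0 and P5, and 0 at P10. The 10 macrophage markers summed to 43.4 to 49.0 at P0, 72.1 to 77.3 at P5 and 10.1 to 10.5 at P10. The Kupffer cell marker Clec4f was at 0 in all 9 libraries. Of these 10 markers only 2 reached an FPKM of 1 at P0, and 1 at P5 and P10. The 2 that were tested went opposite ways from P0 to P5 (log2 fold changes -3.80 and 1.27). The 8 endothelial markers summed to 0.655 to 1.67 at P0, 9.48 to 16.6 at P5 and 1.02 to 1.56 at P10. At most 1 of these 8 reached an FPKM of 1 in any library. The stellate, macrophage and endothelial sums therefore rest on few genes. By limma from P0 to P10, 8 of the 9 hepatocyte markers tested were lower and 0 higher, and 5 of the 10 cholangiocyte markers were lower and 3 higher. The part of these shifts in the change of the mitosis and cytokinesis genes was not tested.

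Set beside the promoters, the 23 members with TTTGAA kept a median of 5.49% of the P0 level at P10 (2.56% to 31.3%), and the 8 with a promoter but without these letters a median of 4.19% (2.01% to 18.5%). The ranges overlapped over most of their length.

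In Pri-Hep and Hep-Orgs the same genes were low and differed little between the groups. Almost no gene tested there, member or not, was called between these groups. Their summed FPKM was 53.5 to 57.6 in all 12 libraries, or 0.0179% to 0.0192% of the summed FPKM of all genes. The Cho-Orgs libraries held 0.155% to 0.221% at P0 and 0.0164% to 0.0168% at P10, in a table that was normalised apart. The 2 tables also sum different genes. Of 8 mitochondrially encoded genes, 12.5% to 13.3% of all FPKM in the hepatocyte table, 0 were found by symbol in the Cho-Orgs table. Incenp had the highest mean, 9.36 FPKM over the 12 libraries, followed by Top2a at 5.67, Cdk1 at 3.34 and Mki67 at 2.56, and Nuf2 had the lowest at 0.215. Of the 37 genes 24 reached an FPKM of 1 in at least 3 libraries and were tested. Those that did not were Cenpa, Spc24, Cdca8, Bub1b, Cenpf, Ndc80, Birc5, Aurkb, Bub1, Kif4, Kif2c, Ttk and Nuf2.

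Mki67 had 2.47, 2.78 and 2.51 FPKM in the Pri-Hep libraries, 2.67, 2.53 and 2.50 at P1, 2.55, 2.29 and 2.71 at P5 and 2.27, 2.60 and 2.89 at P10. Top2a had 5.66, 5.93 and 5.38 in Pri-Hep, 5.29, 5.59 and 5.57 at P1, 5.52, 5.57 and 5.66 at P5 and 6.02, 5.92 and 5.91 at P10. The groups of Mki67 overlapped throughout, and for Top2a the P10 libraries lay above those of P1 and P5 by a small margin. The share of all genes that separated in this way was not counted for these groups. In none of the 6 comparisons between the 4 groups was a member called (0 of 24 by limma, and 0 by limma with voom weights on the recovered fragments). Of the 75 other mitotic genes 42 were tested, and 0 of them were called in any of the 6 comparisons. The share of all 10986 tested genes that was called was 0.0091% at P1 against Pri-Hep, 0.0091% at P5 against Pri-Hep, 0% at P10 against Pri-Hep, 0% at P5 against P1, 0% at P10 against P1 and 0.0273% at P10 against P5. At most 3 genes were called in a comparison, so the absence of calls is not particular to the members.

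At an unadjusted p under 0.05, 1 member differed at P1 against Pri-Hep, 2 at P5 against Pri-Hep, 2 at P10 against Pri-Hep, 2 at P5 against P1, 1 at P10 against P1 and 1 at P10 against P5. The shares of all genes at that level were 8.29%, 10.8%, 6.64%, 3.97%, 8.98% and 11.5% in the same order. These members were Aurka, higher at P1 (0.25) and P10 (0.25) than in Pri-Hep, Mad2l1, lower at P10 than in Pri-Hep (-0.14), Spc25, lower at P5 than in Pri-Hep (-0.20) and higher at P10 than at P5 (0.21), Prc1, lower at P5 than in Pri-Hep (-0.13) and at P1 (-0.12), Ect2, lower at P5 than at P1 (-0.14), and Top2a, higher at P10 than at P1 (0.10). None passed the adjustment, and the lowest limma adjusted p was 0.249. The medians of the members' log2 fold changes lay between -0.01 and 0.03, and the 95% interval of a member reached 0.15 to either side of its value at the median and no farther than 0.45 from 0. The lowest values rested on as few as 12 fragments.

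The spread between the 12 libraries was near that of counting alone. For the 24 tested members the variance over all libraries was 0.513 to 2.28 times the counting variance, with a median of 1.28, against 1.62 over all genes. For the 13 others the median was 1.34.

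**Figure D4:**
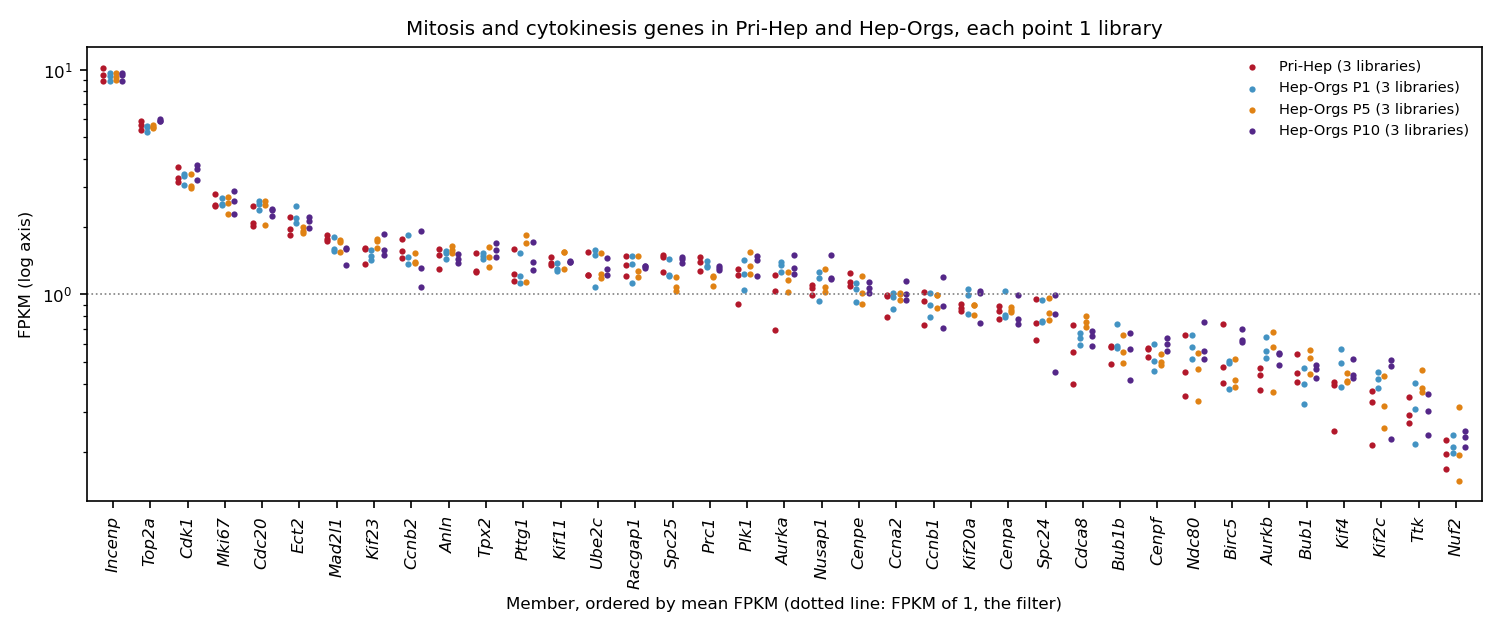
FPKM (log axis) of each of the 37 genes in the 12 libraries of the hepatocyte table (Pri-Hep and Hep-Orgs), each point 1 library, ordered by mean FPKM, with a dotted line at the FPKM of 1 used as the filter. The 4 groups lie close together, from Incenp with a mean of 9.36 FPKM to Nuf2 with 0.215.

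In the Smart-Seq libraries of picked P0 Hep-Orgs, the round-like library had the highest level of all 37 genes. The summed FPKM was 1356 in the round-like, 720 in the grape-like and 703 in the intermediate library. With 1 library per subtype there is no test, subtype and library cannot be told apart, and intervals cover counting error only. The median member was 1.78-fold higher in the round-like than in the grape-like library and 1.94-fold higher than in the intermediate one.

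Against the round-like library, the grape-like library had log2 ratios of FPKM + 1 from -1.86 in Cdc20 to -0.30 in Nuf2, with a median of -0.78 against -0.13 over all genes. Past a 2-fold difference were 10 members lower and 0 higher, where 8.95% of 12417 genes were lower and 13.1% higher. The intermediate library had ratios from -1.42 in Ect2 to -0.38 in Pttg1, with a median of -0.89 against -0.13 over all genes, and 14 members were past 2-fold lower and 0 higher, where 2.66% of genes were lower and 4.03% higher. Scaling by median ratios lowered the counts to 5 and 3, where 8.02% and 1.91% of genes were past 2-fold lower, moved the median of all genes by over 0.1 for the intermediate library, and left all 37 members lower in both ratios. Grape-like and intermediate libraries differed less, with a median of 0.09, as members went both ways, from -0.87 in Cdc20 to 0.72 in Ttk. In the grape-like library 13 members were lower and 24 higher, of which 10 and 20 were beyond counting error. Past 2-fold were 0 members, where 7.32% of genes were lower and 9.94% higher. The lowest of the 3 values was in the intermediate library for 24 members and in the grape-like library for 13. The 25 DNA replication genes had the same order, summing to 969 FPKM in the round-like library, 681 in the grape-like and 546 in the intermediate.

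Mki67 had 34.3 FPKM in the grape-like, 21.9 in the intermediate and 44.9 in the round-like library, so that the grape-like library lay nearer to the round-like one. Ube2c had 46.0, 60.9 and 111 FPKM, Cdc20 23.3, 43.4 and 87.4, and Plk1 18.5, 24.4 and 50.6, in the same order. In these 3 the grape-like library was the lowest and the intermediate library lay between the others. Top2a had 54.2, 48.6 and 105 FPKM, Ccnb2 28.9, 31.3 and 56.9, and Mad2l1 23.8, 23.0 and 48.2. In these the grape-like and intermediate libraries were close and the round-like library stood alone. Kif23 had 17.2, 17.1 and 41.9, Kif11 11.6, 10.6 and 24.5, Cenpa 21.8, 23.4 and 36.68, and Cdca8 27.6, 21.9 and 45.3 FPKM.

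**Figure D5:**
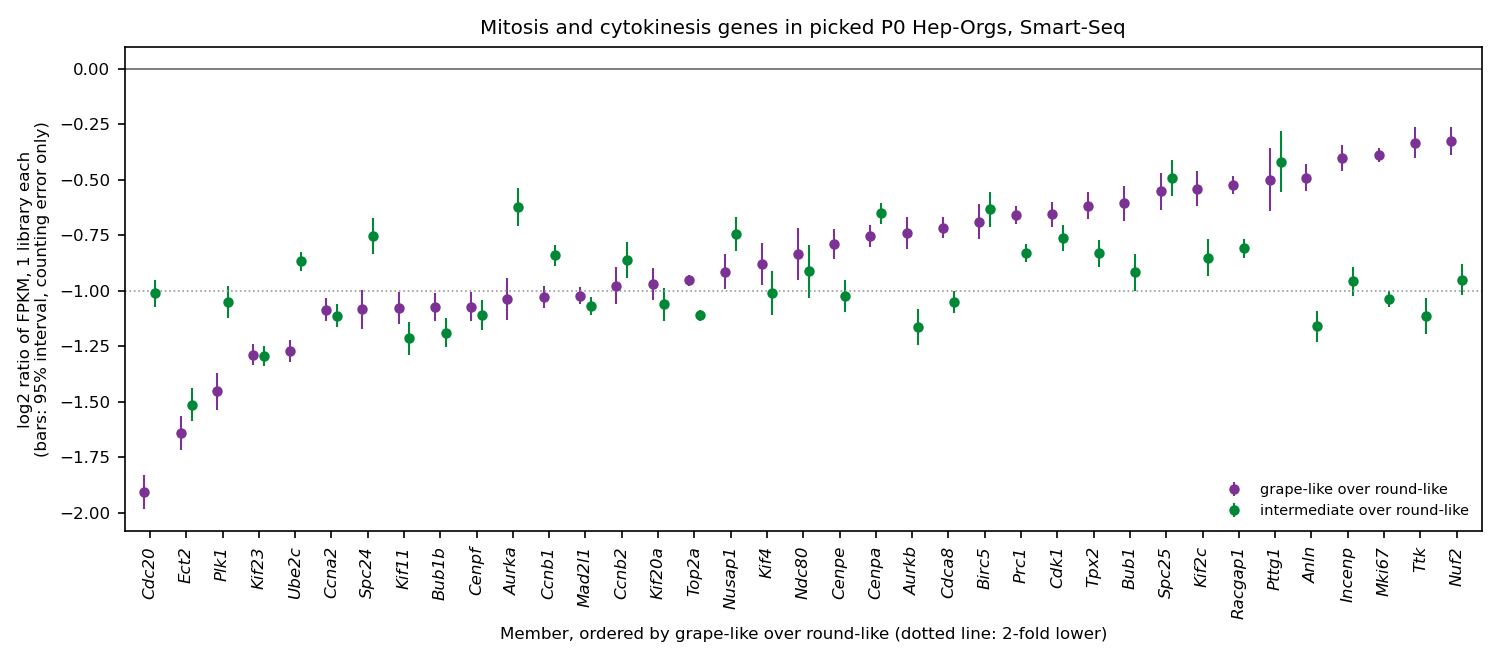
log2 ratio of FPKM, with no pseudocount, to the round-like library for each of the 37 genes in the grape-like and intermediate libraries of picked P0 Hep-Orgs. There is 1 library each, with 95% intervals for counting error only and a dotted line at 2-fold lower. All points lie below 0, from -1.91 (Cdc20) to -0.32 (Nuf2) for grape-like and from -1.51 (Ect2) to -0.42 (Pttg1) for intermediate.

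Cell type markers differed between these libraries as well. The 10 macrophage markers summed to 9401 FPKM in the grape-like, 2672 in the intermediate and 1430 in the round-like library, the 9 stellate and fibroblast markers to 1556, 402 and 346, and the 8 endothelial markers to 75.7, 31.7 and 13.2. The hepatocyte markers summed to 7872, 15502 and 2230 and the cholangiocyte markers to 942, 3729 and 3435 in the same order. The round-like library, highest in the mitosis and cytokinesis genes, had the least of the macrophage, stellate, endothelial and hepatocyte markers. The macrophage marker Adgre1 was at 369, 121 and 75.7 FPKM and Clec4f at 79.3, 13.4 and 10.3. The part of this in the ratios was not tested.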

How the data were processed

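RNA-seq covered 21 bulk and 3 Smart-Seq libraries, grouped by the labels. The authors deposited FPKM per gene in 3 tables. By the submitters' processing notes, tools were featureCounts 2.0.3 and edgeR 3.40.2 on build mm10. The aligner is not given in the sources used here. Symbols and coordinates are those of the tables, and 35 of 37 members had the coordinates of GENCODE M21. Per table, genes were kept where 3 or more libraries reached an FPKM of 1, log2(FPKM + 1) was fitted by group with limma 3.58.1 (R 4.3.3, eBayes with trend, two-sided), and p-values were adjusted by Benjamini-Hochberg over all genes tested (threshold 0.05). The tables were never fitted together. Fold changes on this scale understate those of low genes. FPKM values of the hepatocyte table gave whole fragments, whereas the depth of the other tables was estimated from single-transcript genes and is approximate. Smart-Seq intervals are 95% Poisson and, like the fragment numbers, cover counting error only. The study's count model was not run, and limma with voom weights was run on the fragments of the hepatocyte table as an alternative.

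The 37 members, the other gene lists and the markers were chosen with earlier results of these data known. Values in every library are given for the member of each role with the highest mean FPKM over the Cho-Orgs libraries and for Mki67, and further members were named as extremes, where a call was missed or after their values were seen. Promoter sequences are from RefSeq (GRCm38.p6), matched by symbol. The limma code was tested on simulated data. Python 3.11.15, pandas 2.3.3 and numpy 2.4.6 were used for summaries. Alternatives tried were the pseudocount, the filter, scaling, the variance model, the replicate block and leaving out each library. The shares of the P0 level left without P0 replicate 1 were added after seeing the data.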

Additional observations from a re-analysis of the deposited data

Results flagged for a closer look

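The 2 steps of passaging in Cho-Orgs differed by a direct test. In 32 of the 37 mitosis and cytokinesis genes the decrease from P5 to P10 differed from that from P0 to P5 on the log2(FPKM + 1) scale (limma contrast, adjusted p under 0.05), and each of these decreases was the steeper one after P5. Leaving out single libraries gave 28 to 37 such genes. Over all genes tested, 27.8% were called in that direction and 20.9% in the other.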

How the results depend on the processing

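No called value of the 10 members followed in every library and no Cho-Orgs or Smart-Seq median against round-like changed direction, whereas Hep-Orgs medians near 0 took either sign in 3 comparisons (-0.03 to 0.02 at P1 against Pri-Hep, -0.03 to 0.03 at P5 against Pri-Hep, and -0.02 to 0.02 at P5 against P1). For Cho-Orgs P5 against P0, requiring a log2 fold change of at least 1 left 13 members called lower. A pseudocount of 0.1 moved the medians to -3.07 (P10 against P5), -4.17 (P10 against P0) and -2.07 (difference between the steps), and rescaling to TPM moved them to -2.51, -3.50 and -1.61. Leaving out single libraries gave 33 to 36 members lower at P5 against P0 (medians -1.002 to -0.72), 37 at P10 against P5 (-2.03 to -1.98), 37 at P10 against P0 (-3.12 to -2.86) and 28 to 37 with a different step (-1.30 to -1.09), and 0 members in each Hep-Orgs comparison. In Cho-Orgs the median correlation of deviations was -0.0063 between samples of the same replicate number and -0.0030 between other numbers. With 3 libraries per group this cannot show whether the samples were paired. With the replicate block 34, 37 and 37 members were lower and 32 had a different step, with 0 in Hep-Orgs. Median-ratio scaling turned all-gene calls at P5 against P0 from 2621 lower and 3938 higher to 3449 and 3087. Grape-like against round-like, median-ratio scaling gave 5 members past 2-fold and a median of -0.70, and a 1.5-fold limit 27 members. Intermediate against round-like, it gave 3 members and a median of -0.76, TPM a median of -1.01 and a 1.5-fold limit 35 members. Grape-like against intermediate, TPM gave a median of 0.17 and a 1.5-fold limit 1 lower and 3 higher. The cause of these moves was not tested. The depth of the Cho-Orgs and Smart-Seq tables is approximate, and P10 values rest on as few as about 4 fragments.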
